A study of Homo sapiens with 6 samples.

Results

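The Hippo pathway genes described here are YAP1, WWTR1, TEAD1, TEAD2, TEAD3, TEAD4, LATS1, LATS2, AMOTL2 and ANKRD1, taken as every row of the deposited expression table that carries one of these symbols. All 10 were found, among 59050 rows. Bulk RNA-seq was collected from HFF, a line of human foreskin fibroblasts, in 2 groups of 3 libraries. One group is labelled 4OHT and the other DMSO, the usual solvent of 4-hydroxytamoxifen (4-OHT). The study's design describes cells at about passage 18 that received a viral vector, pLNC ER:RAS, in which H-RAS with the activating change G12V is fused to a part of the oestrogen receptor that 4-OHT switches on. Infected cells were selected with 200 µg/ml neomycin, treated with 100 nM 4-OHT and harvested a week later, in oncogene-induced senescence. The design names a single transduced line, and the DMSO labels do not state the vector separately. Which promoter drives the fusion, and how many clones make up the line, is not given in the labels or design.

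In the Hippo pathway the kinases STK3 and STK4, with the adaptor SAV1, activate the kinases LATS1 and LATS2, which work with the adaptors MOB1A and MOB1B. LATS kinases phosphorylate the coactivators YAP1 and TAZ (the product of WWTR1), which are then held in the cytoplasm or degraded. Unphosphorylated YAP1 and TAZ enter the nucleus and bind the TEAD transcription factors, which recognise DNA through a short motif whose core is read as GGAATG. In fibroblasts the pathway is known for its response to cell shape, tension and crowding. Most of this control acts on the proteins, so transcript levels give the amounts of the parts and not their activity.

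TEAD motifs in the promoters give the sequence context of these genes, and CCN2, a classic target of YAP1 and TEADs, shows them most plainly. The 250 bases before its RefSeq start site (GRCh38.p14, chr6:131951373-131951622, minus strand) are printed 5′ to 3′, with every match of GGAATG or its reverse complement CATTCC in capitals.
CCN2 promoter: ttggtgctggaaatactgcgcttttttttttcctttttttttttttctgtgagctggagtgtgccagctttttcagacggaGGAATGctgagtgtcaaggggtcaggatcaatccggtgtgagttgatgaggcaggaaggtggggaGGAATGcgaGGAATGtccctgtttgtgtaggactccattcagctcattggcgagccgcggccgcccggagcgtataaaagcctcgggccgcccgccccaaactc
The 3 matches begin 169, 104 and 95 bases before the start site. Of 35116 RefSeq windows of this length, 4175 (11.9%) held at least 1 match on either strand and 29 (0.0826%) held 3 or more.

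Windows were found for 8 of the 10 Hippo genes, TEAD1 and TEAD4 being the others, and 3 of their 12 windows (25%) held a match. These were windows of YAP1, AMOTL2 and ANKRD1, and their sites are printed with 10 bases on each side, 5′ to 3′ on the strand of the gene, the motif in capitals.
YAP1 site: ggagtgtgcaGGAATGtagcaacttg
AMOTL2 site: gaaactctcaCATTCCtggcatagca
ANKRD1 distal site: caccaccaaaGGAATGgccctctcac
ANKRD1 proximal site: cactgagtctGGAATGaaaattcacc
The YAP1 site (chr11:102110275-102110300, plus strand) begins its motif 162 bases before the RefSeq start site. The AMOTL2 site (chr3:134374501-134374526, minus strand) begins it 69 bases before the second of the RefSeq starts, which lies inside the gene as GENCODE 29 places it, while the window of the other AMOTL2 start held 0 matches. The ANKRD1 sites (chr10:90921292-90921317 and chr10:90921200-90921225, minus strand) begin it 220 and 128 bases before the RefSeq start. That start and the proximal site lie inside the gene as GENCODE 29 places it, and the distal site lies upstream of the gene. A match is a description of the letters in this window, not evidence that a TEAD binds there.

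In the 4-OHT libraries YAP1, WWTR1, TEAD3 and LATS2 rose, and TEAD1, TEAD2, TEAD4 and AMOTL2 fell. AMOTL2, a scaffold that binds YAP1 at cell junctions, was 3.31-fold lower, and TEAD4 was 2.47-fold lower. YAP1 and LATS2, the coactivator and one of the kinases that restrain it, were 1.40-fold and 1.41-fold higher. LATS1 did not pass the test. ANKRD1, a well-known target of YAP1 and TAZ, lay too low to be tested.

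Levels are TPM, a share of all transcripts that accounts for gene length, so they may be compared between genes. Each pair of levels names 4-OHT before DMSO, as mean ± SD (n = 3 libraries each). A positive log2 fold change means a higher level in 4-OHT. It is computed on log2(TPM + 1), and the added 1 shrinks the changes of low genes. Plain folds, such as 3.31-fold, are ratios of mean TPM. The log2 fold changes come from limma over the 15272 genes whose mean level reached 1 TPM, with p-values adjusted by the Benjamini-Hochberg method and called at 0.05. Over all these genes 49.6% were called, 19.8% higher and 29.9% lower. Of the 10 Hippo genes 9 were tested, and 8 were called, 4 in each direction. In 8 of the 9 the libraries of the groups did not overlap, as in 59.0% of all genes tested. The median size of the log2 fold change was 0.34 over the 9 genes and 0.33 over all genes tested, and their median log2 fold changes were -0.18 and -0.09. Changes of at least 1 log2 unit with a call were seen in 2 of the 9, AMOTL2 and TEAD4, and in 12.4% of all genes. The size of change in the Hippo genes was thus near that of all genes. They were chosen with results known, so the share called is given as a description.

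The libraries followed their labels in the genes that mark this treatment. MKI67, a proliferation marker, stood at 4.75 to 5.50 TPM in 4-OHT and 33.2 to 35.6 in DMSO, and the lamin LMNB1 at 5.65 to 7.78 and 56.9 to 67.3. HRAS was high in both groups, at 1222 to 1316 and 908 to 956 TPM, in a row that does not separate the introduced from the native transcript. All 9 fibroblast markers passed the filter (3 rose and 6 fell), with a summed level of 19051 to 19463 TPM against 20134 to 20738. VIM, which rose, was the largest part of that sum (11537 ± 136 against 10399 ± 262). Among those that fell, DCN had the largest log2 fold change (90.0 ± 9.49 against 186 ± 12.8). Of 8 keratinocyte and epithelial markers, KRT1 was listed at 0, and KRT5, KRT14, CDH1 and TP63 were under 0.1 TPM in every library. The other 3 were tested: DSP rose (42.4 ± 0.479 against 17.0 ± 0.268 TPM), EPCAM fell (0.60 ± 0.135 against 1.55 ± 0.132), and KRT10 was not called (37.3 ± 5.26 against 45.2 ± 8.11). The summed level of these 8 was 75.5 to 85.9 TPM against 54.8 to 69.3. Smooth muscle and pericyte markers had a summed level of 802 to 859.7 TPM against 1763 to 2128, but did not all move in the same direction. Of 5 tested genes 3 fell and 1 rose. TAGLN, which made up most of the sum, fell (565 ± 28.9 against 1674 ± 194). CNN1 (5.57 ± 0.228 against 36.1 ± 2.47) and ACTA2 (169 ± 4.05 against 202 ± 10.6) fell too. RGS5 rose (24.6 ± 3.99 against 3.30 ± 0.514), and CSPG4 was not called (71.5 ± 1.31 against 72.6 ± 2.30). MYH11 and DES stayed under 1 TPM in every library. Summed levels of 5 endothelial markers were 1.38 to 1.82 against 2.47 to 2.57 TPM, and of 5 melanocyte markers 0.647 to 1.01 against 1.40 to 2.73. Those of 6 immune markers were 59.7 to 67.3 against 60.1 to 90.5, mostly CD68 (57.4 ± 4.73 against 77.0 ± 16.6, not called). Of the genes tested in these lists, TEK and PMEL fell and CD14 rose. TEK (0.366 ± 0.106 against 1.97 ± 0.149 TPM), PMEL (0.490 ± 0.118 against 1.66 ± 0.604) and EPCAM reached a mean of 1 TPM only through DMSO. The filter thus favoured a fall in them. Of the untested endothelial markers, PECAM1 (0.976 ± 0.197 against 0.334 ± 0.141) and KDR (0.0665 ± 0.00529 against 0.0129 ± 0.0224) were higher in 4-OHT without overlap. CDH5 and VWF overlapped between the groups. The part of these marker lists in the results was not tested. In bulk samples fewer cells of a type and less RNA per cell cannot be told apart. Nothing in the labels says that the replicates came from separate cultures, so the p-values measure the spread between these libraries, which may be technical.

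**Figure D1:**
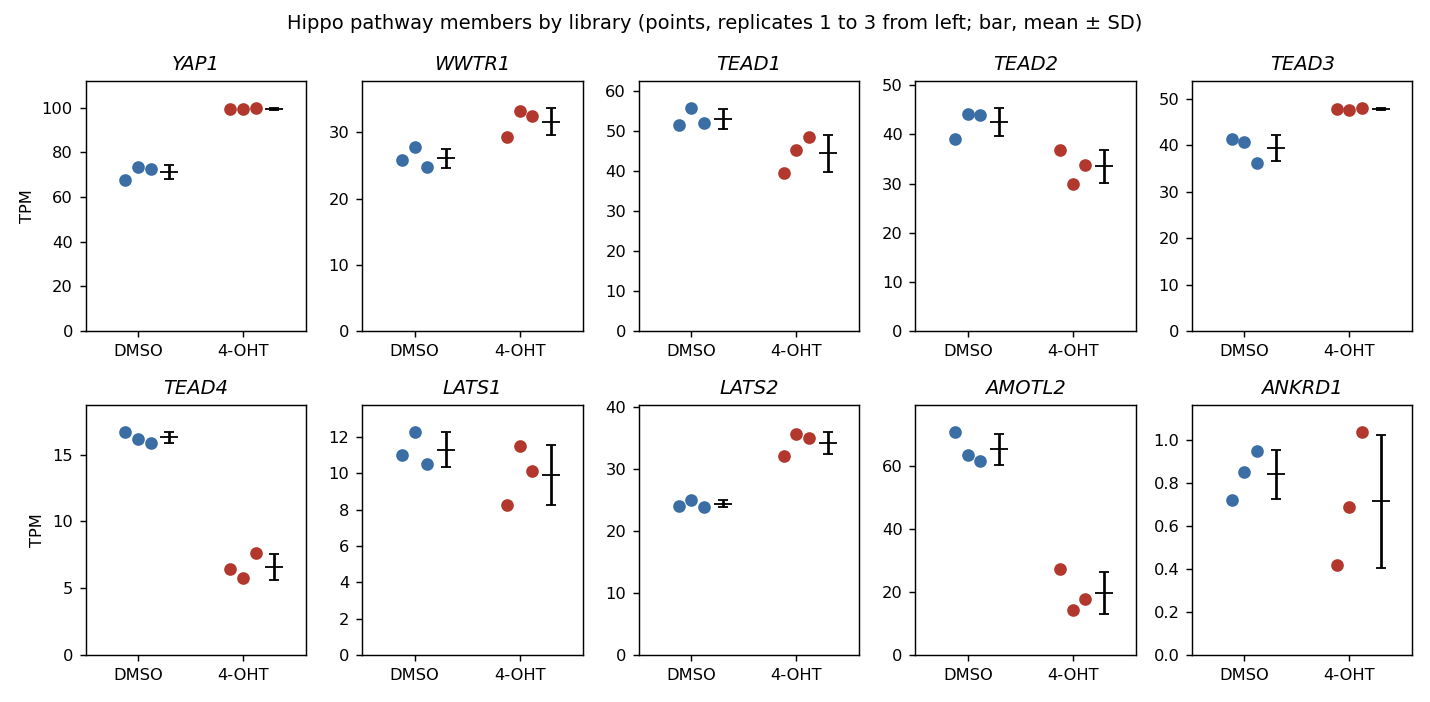
TPM of each of the 10 Hippo genes in every library, with the libraries of each group as points (replicates 1 to 3 from the left) and mean ± SD beside them. The 3 libraries of a group lie entirely above or below those of the other in 8 genes, and they overlap in LATS1 and ANKRD1.

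Both coactivators rose. YAP1 (chromosome 11, 102110461 to 102233423, GRCh38, GENCODE 29), the main transcriptional effector of the pathway, was read at 99.2, 99.2 and 99.9 TPM in 4-OHT replicates 1, 2 and 3 and at 67.8, 73.3 and 72.6 in DMSO. The 4-OHT libraries were nearly identical to each other, and all lay above every DMSO library. The mean was 99.4 ± 0.440 against 71.2 ± 3.0, a log2 fold change of 0.48 (SE 0.0477, 95% interval 0.36 to 0.59, adjusted p = 0.000181). The call was kept under all 14 alternative settings, with log2 fold changes of 0.44 to 0.60 and adjusted p from 5.31e-05 to 0.00182.

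WWTR1 (chromosome 3, 149517235 to 149736714), which encodes TAZ, the paralogue of YAP1, was read at 29.3, 33.2 and 32.5 TPM in 4-OHT and at 25.8, 27.7 and 24.8 in DMSO. The groups did not overlap, but 4-OHT replicate 1 lay only just above DMSO replicate 2. Its log2 fold change was 0.27 (SE 0.0743, 95% interval 0.09 to 0.44, adjusted p = 0.0208). This call rested on the full set of libraries: it was lost without 4-OHT replicate 2 (adjusted p = 0.0681) or 3 (0.0635) and without DMSO replicate 1 (0.0567) or 3 (0.0635). Over the alternatives its adjusted p ran from 0.00346 to 0.0681.

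YAP1 and WWTR1 together summed to 128, 132 and 132 TPM in 4-OHT and 93.6, 101 and 97.4 in DMSO. YAP1 made up 75.9% ± 1.18 of that sum in 4-OHT and 73.2% ± 1.16 in DMSO. The sum and the share were higher in every 4-OHT library than in any DMSO library, which gives an exact permutation p = 0.1 (2-sided) for each. That is the smallest p that 3 against 3 libraries allow, and adjusted over the 10 sums and shares computed it is 0.125, so neither could pass the threshold.

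The TEAD genes did not move as a group: TEAD3 rose, TEAD1 and TEAD2 fell by little, and TEAD4 fell most. The 4 factors share a DNA-binding domain and all can bind YAP1 and TAZ. TEAD4 (chromosome 12, 2959330 to 3040673) was read at 6.41, 5.76 and 7.62 TPM in 4-OHT and at 16.7, 16.2 and 15.9 in DMSO. The highest 4-OHT library was below 8 TPM and no DMSO library was under 15, the widest separation in the family. The mean was 6.59 ± 0.944 against 16.3 ± 0.425 (log2 fold change -1.19, SE 0.108, 95% interval -1.45 to -0.94, adjusted p = 0.000108). The call was kept under all 14 alternatives, with log2 fold changes of -1.30 to -1.0.

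TEAD3 (chromosome 6, 35473597 to 35497076) was read at 47.8, 47.6 and 48.0 TPM in 4-OHT and at 41.2, 40.7 and 36.2 in DMSO. Every 4-OHT library was higher than every DMSO library, and the spread lay within DMSO, where replicate 3 was lowest. The log2 fold change was 0.28 (SE 0.0642, 95% interval 0.13 to 0.43, adjusted p = 0.00983), and the call was kept under all 14 alternatives (adjusted p 0.00189 to 0.0306).

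TEAD1 (chromosome 11, 12674591 to 12944483) was read at 39.5, 45.3 and 48.4 TPM in 4-OHT and at 51.4, 55.8 and 51.9 in DMSO. All 4-OHT libraries lay below all DMSO libraries, and 4-OHT replicate 1 was lowest. The log2 fold change was -0.25 (SE 0.0829, 95% interval -0.45 to -0.06, adjusted p = 0.0386), a call that was lost in 8 of 14 alternatives. Among these were median-of-ratios scaling between libraries (-0.14, adjusted p = 0.196) and leaving out 4-OHT replicate 1 (-0.17, 0.0849) or 2 (0.0695), or DMSO replicate 1 (0.0652), 2 (0.113) or 3 (0.0717). The adjusted p over the alternatives ran from 0.0226 to 0.196.

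TEAD2 (chromosome 19, 49340595 to 49362457) was read at 36.8, 30.0 and 33.7 TPM in 4-OHT and at 39.1, 44.2 and 44.0 in DMSO. The groups came closest between 4-OHT replicate 1 and DMSO replicate 1. TEAD2 differed by a log2 fold change of -0.34 (SE 0.0893, 95% interval -0.55 to -0.12, adjusted p = 0.0176). The call was lost under median-of-ratios scaling (-0.22, with 0.0875 as adjusted p), with no low-value filter (0.0654) and without DMSO replicate 2 (0.0575) or 3 (0.0572), with adjusted p from 0.0123 to 0.0875 over the alternatives.

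**Figure D2:**
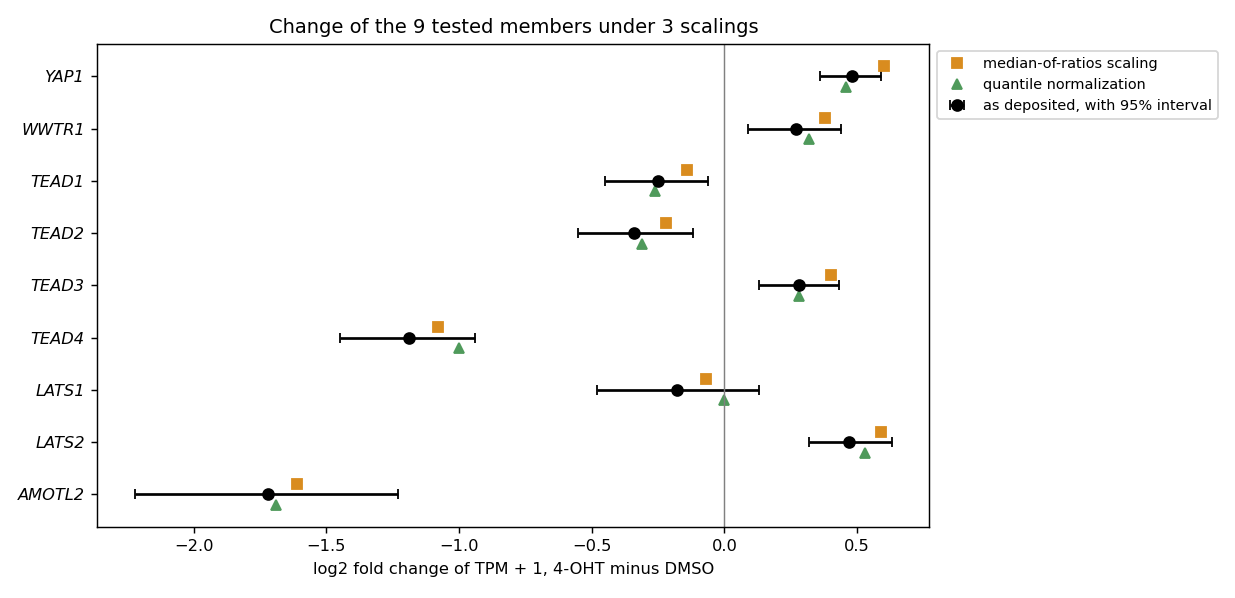
Log2 fold change of the tested Hippo genes (log2 of TPM + 1, 4-OHT minus DMSO), as points with 95% intervals from limma. AMOTL2 and TEAD4 lie below -1, the YAP1 and LATS2 intervals lie well above 0, and the LATS1 interval spans 0.

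The shares of the TEADs in their summed transcripts could not pass the threshold, since 3 against 3 libraries allow no exact p below 0.1. Those of TEAD3 and TEAD4 did not overlap between the groups. The 4 TEADs summed to 131, 129 and 138 TPM in 4-OHT and 149, 157 and 148 in DMSO. TEAD3 held 36.6%, 37.0% and 34.9% of that sum in 4-OHT and 27.8%, 25.9% and 24.5% in DMSO. TEAD4 held 4.97% ± 0.533 against 10.8% ± 0.488. The TEAD1 shares overlapped between the groups, at 33.5% ± 2.83 against 35.1% ± 0.490 (difference -1.53 percentage points, exact permutation p = 0.7). Without 4-OHT replicate 1 this difference was 0.108, and without 4-OHT replicate 2 or 3 it was -2.36 or -2.33. TEAD2 held 25.3% ± 2.53 against 28.1% ± 1.71 (difference -2.78, exact permutation p = 0.2), a difference of -4.21 without 4-OHT replicate 1 and -1.79 without 4-OHT replicate 2. For the summed TEADs and for the TEAD3 and TEAD4 shares the groups did not overlap. The exact permutation p = 0.1 for each, the smallest possible, or 0.125 adjusted.

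The ratio of YAP1 plus WWTR1 to the summed TEADs was 0.984, 1.03 and 0.961 in 4-OHT and 0.630, 0.644 and 0.658 in DMSO. Every 4-OHT library lay above every DMSO library (0.991 ± 0.0337 against 0.644 ± 0.0140). The exact permutation p = 0.1 (adjusted 0.125) is the smallest that 3 against 3 libraries allow, so the ratio could not pass the threshold. This ratio is within each library, so scaling each library by a factor does not change it.

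**Figure D3:**
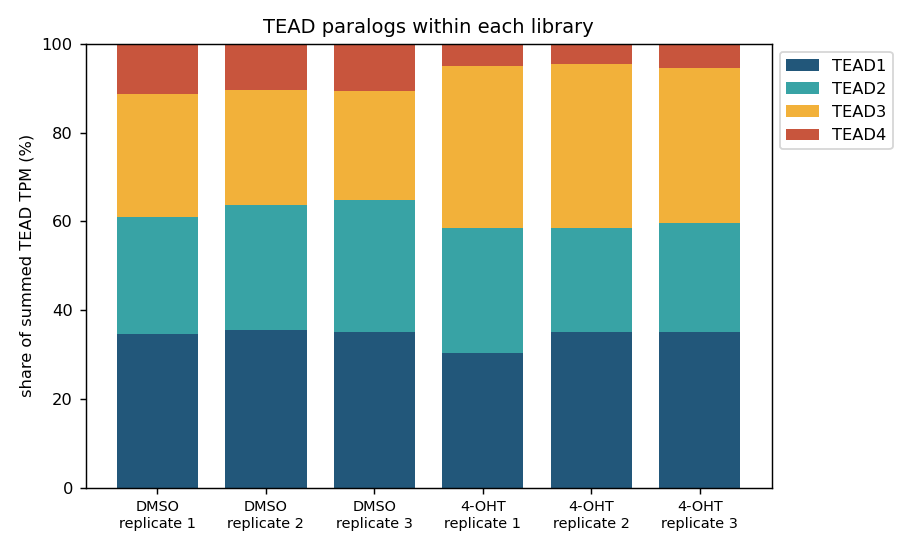
Share of each TEAD gene in the summed TPM of TEAD1 to TEAD4, in percent, as stacked bars for every library. TEAD3 stands at 34.9% to 37.0% in 4-OHT and 24.5% to 27.8% in DMSO, while the TEAD1 shares of the groups overlap.

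Of the LATS kinases, only LATS2 passed the test. The changes of LATS1 and LATS2 were compared only through the share of LATS2 in their sum, given below. LATS2 (chromosome 13, 20973032 to 21061547), which phosphorylates YAP1 and TAZ and is also a transcriptional target of theirs, was read at 32.1, 35.6 and 35.0 TPM in 4-OHT and at 24.1, 25.0 and 23.9 in DMSO. The groups were well apart (34.2 ± 1.84 against 24.4 ± 0.574). The log2 fold change was 0.47 (SE 0.0640, 95% interval 0.32 to 0.63, adjusted p = 0.000807), and the call was kept under all 14 alternatives (0.45 to 0.59).

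LATS1 (chromosome 6, 149658153 to 149718256), its paralogue, was read at 8.23, 11.5 and 10.1 TPM in 4-OHT and at 11, 12.3 and 10.5 in DMSO. The groups overlapped, with 4-OHT replicate 2 above DMSO replicates 1 and 3. Its log2 fold change was -0.18 (SE 0.131, 95% interval -0.48 to 0.13, adjusted p = 0.304). Single libraries moved it: it was -0.06 without 4-OHT replicate 1, -0.28 without 4-OHT replicate 2 and -0.11 without DMSO replicate 2, and it was 0.00 under quantile normalization and -0.07 under median-of-ratios scaling. LATS1 was called in none of these. LATS2 made up 77.6% ± 2.04 of the summed LATS transcripts in 4-OHT and 68.4% ± 1.31 in DMSO, without overlap (exact permutation p = 0.1, adjusted 0.125). With 3 against 3 libraries this share could not pass the threshold.

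AMOTL2 (chromosome 3, 134355874 to 134375479) showed the largest log2 fold change of the 9 tested genes. It belongs to the angiomotins, which hold YAP1 at junctions and on actin and aid LATS activation, and its gene is in turn a target of YAP1. It was read at 27.2, 14.1 and 17.8 TPM in 4-OHT and at 70.9, 63.3 and 61.4 in DMSO. The groups were far apart, but the 4-OHT libraries scattered widely, replicate 1 being highest. The coefficient of variation was 34.2% in 4-OHT and 7.64% in DMSO, where the medians of the 9 tested genes were 10% and 5.50%. On the log2 scale the fold change was -1.72 (SE 0.209, 95% interval -2.22 to -1.23, adjusted p = 0.000479), and it was called under all 14 alternatives (-1.97 to -1.52, adjusted p 6.46e-05 to 0.00795).

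ANKRD1 (chromosome 10, 90912096 to 90921276), a muscle ankyrin-repeat protein widely used as a readout of YAP1 and TAZ, was low in every library. It was read at 0.420, 0.690 and 1.04 TPM in 4-OHT and at 0.722, 0.851 and 0.948 in DMSO. The groups overlapped, and the 4-OHT libraries enclosed the DMSO ones. Its mean was below 1 TPM, so it was not tested in the comparison above. With no minimum level, over 36814 genes, its log2 fold change was -0.11 (SE 0.172, 95% interval -0.56 to 0.33, adjusted p = 0.708).

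By level, YAP1 was first of the 10 genes in both groups. In DMSO, AMOTL2 came next, its libraries overlapping those of YAP1 (65.2 ± 4.98 against 71.2 ± 3.0 TPM). In 4-OHT, AMOTL2 was seventh, between WWTR1 and LATS1 with no overlap with either. TEAD4 was above LATS1 in DMSO and below it in 4-OHT, without overlap in either group. TEAD3 and TEAD1 overlapped in 4-OHT, as did TEAD2 with LATS2 and with WWTR1. In DMSO the libraries overlapped between TEAD2 and TEAD3 and between WWTR1 and LATS2. ANKRD1 was lowest in both.

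The rows are sums over a gene's transcripts, so isoforms are not told apart. Genes that overlap the Hippo genes in GENCODE 29, such as antisense transcripts at YAP1, WWTR1 and LATS2 and CD37 opposite TEAD2, were at most 2.87 TPM in any library. How counting used the strand is not stated, so reads in those overlaps cannot be assigned. The same holds for the antisense genes at CCN2 and AXL, described further below, which reached 8.31 and 3.10 TPM.

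The rest of the pathway was followed through 6 gene lists. Their counts are read against the 49.6% of all genes tested that were called (19.8% higher, 29.9% lower). Of 82 listed genes that were tested, 55 were called, and 42 of these were called under every alternative in which they were tested. In the list of core kinases and adaptors 9 of 19 tested genes rose and 3 fell (63.2% called, median log2 fold change 0.34, against -0.09 over all genes). Without DMSO replicate 1, 2 or 3 the number that fell was 1 each time. STK4, an upstream kinase that phosphorylates LATS, rose from 23.7 ± 0.980 to 43.6 ± 2.16 TPM (0.86, adjusted p = 4.48e-05). Its paralogue STK3 and the adaptor SAV1 were lower. STK3 stood at 17.2, 20.9 and 20.1 TPM against 22.8, 24.6 and 23.6 (-0.28, adjusted p = 0.0346). SAV1 stood at 37.3, 53.9 and 51.6 against 60.2, 64.9 and 63.3 (-0.41, adjusted p = 0.038).

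The calls of STK3 and SAV1 depended on the libraries. STK3 was lost without 4-OHT replicate 1 (adjusted p = 0.0799) or 3 (0.0563) or any DMSO replicate (0.0578, 0.101 and 0.0774 for 1, 2 and 3), and under median-of-ratios scaling (0.151), quantile normalization (0.077) and no filter (0.0844). SAV1 was lost without any DMSO replicate (0.0689, 0.0979 and 0.0919), under median-of-ratios scaling (0.101), with no filter (0.149) and with no variance trend (0.0651). The LATS partner MOB1B rose (27.6 ± 1.21 against 16.1 ± 2.80, log2 fold change 0.76), as did the LATS-activating kinase MAP4K4 (223 ± 8.34 against 135 ± 9.45, log2 fold change 0.72). STK38, a relative of the LATS kinases, fell (46.8 ± 2.30 against 58.8 ± 1.52, log2 fold change -0.33).

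Upstream and junction regulators went both ways, 6 of 16 rising and 6 falling (75% called, median -0.18). Its largest decreases were in the angiomotins and an atypical cadherin: AMOTL2, AMOT and FAT4. AMOT was read at 0.167, 0.141 and 0.342 TPM in 4-OHT and, in DMSO, at 1.91, 1.93 and 1.89. It was low in both groups but without overlap (-1.26, adjusted p = 0.000827). AMOT reached the mean of 1 TPM needed for testing only through the DMSO libraries. The filter thus favoured a fall, and the call of AMOT is given as a description only. FAT4, a large cadherin that acts upstream of the pathway, was at 1.47 ± 0.427 against 4.53 ± 0.427 (-1.18, adjusted p = 0.00102). WWC3, which aids LATS phosphorylation, rose from 15.4 ± 1.15 to 30.0 ± 2.28 (0.91). LIMD1, which binds LATS and limits it, rose from 16.4 ± 1.21 to 25.8 ± 1.73 (0.62), and FRMD6, a membrane adaptor, from 222 ± 10 to 303 ± 12.4 (0.44). NF2, the tumour suppressor that recruits LATS to the membrane, was at 28.8, 34.8 and 36.7 against 37.0, 39.0 and 42.8 TPM (-0.24, adjusted p = 0.0882), which missed the threshold.

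In STRIPAK, the phosphatase complex that turns off STK3 and STK4, 5 of 14 genes rose and 1 fell (median 0.11). The 42.9% called is below the 49.6% of all genes tested. The phosphatase subunit PPP2CB (163 ± 8.77 against 121 ± 3.43, log2 fold change 0.43), PDCD10 (92.8 ± 3.97 against 68.9 ± 4.72, log2 fold change 0.43) and MOB4 (45.5 ± 1.94 against 34.7 ± 2.14, log2 fold change 0.38) rose. STRIP2 fell from 5.42 ± 0.188 to 3.93 ± 0.650 (-0.39, adjusted p = 0.0406). It missed the threshold in most alternatives: without 4-OHT replicate 1 (adjusted p = 0.108) or 2 (0.112), without DMSO replicate 1 (0.108), 2 (0.0915) or 3 (0.0793), and under median-of-ratios scaling (0.102), quantile normalization (0.431) and no filter (0.0863). Under median-of-ratios scaling 8 genes of the complex rose and 0 fell.

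The list of coactivators, TEADs and VGLL cofactors holds 6 of the Hippo genes above and 4 VGLL genes, whose products compete with YAP1 for TEADs. VGLL3 fell from 24.7 ± 0.885 to 11.6 ± 1.11 TPM (-1.04, adjusted p = 7.53e-05). VGLL4, a repressive cofactor, was at 31.3, 29 and 31.4 against 27.1, 23.4 and 20.6 (0.36, adjusted p = 0.0227). It missed the threshold without 4-OHT replicate 1 (adjusted p = 0.0642) or 3 (0.0668), with no filter (0.0819) and without DMSO replicate 2 (0.0588) or 3 (0.0522). VGLL1 and VGLL2 were listed at 0 in every library. Among enzymes that act on the turnover of YAP1, TAZ or the LATS kinases, 3 of 7 rose and 0 fell (median 0.17, and 6 rose under median-of-ratios scaling). Their 42.9% called is likewise below the 49.6% of all genes. The ubiquitin ligase subunits FBXW11 (56.0 ± 3.54 against 34.9 ± 1.26, log2 fold change 0.66) and BTRC (16.8 ± 0.298 against 12.7 ± 0.917, log2 fold change 0.38) rose. ITCH, a ligase of LATS1, was at 27.8, 23.0 and 32.4 against 21.3, 20.3 and 14.3 TPM (0.55, adjusted p = 0.0335). It did not pass without 4-OHT replicate 1 (adjusted p = 0.081) or 3 (0.101), without DMSO replicate 3 (0.0749), with no filter (0.138) or with no variance trend (0.0544).

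**Figure D4:**
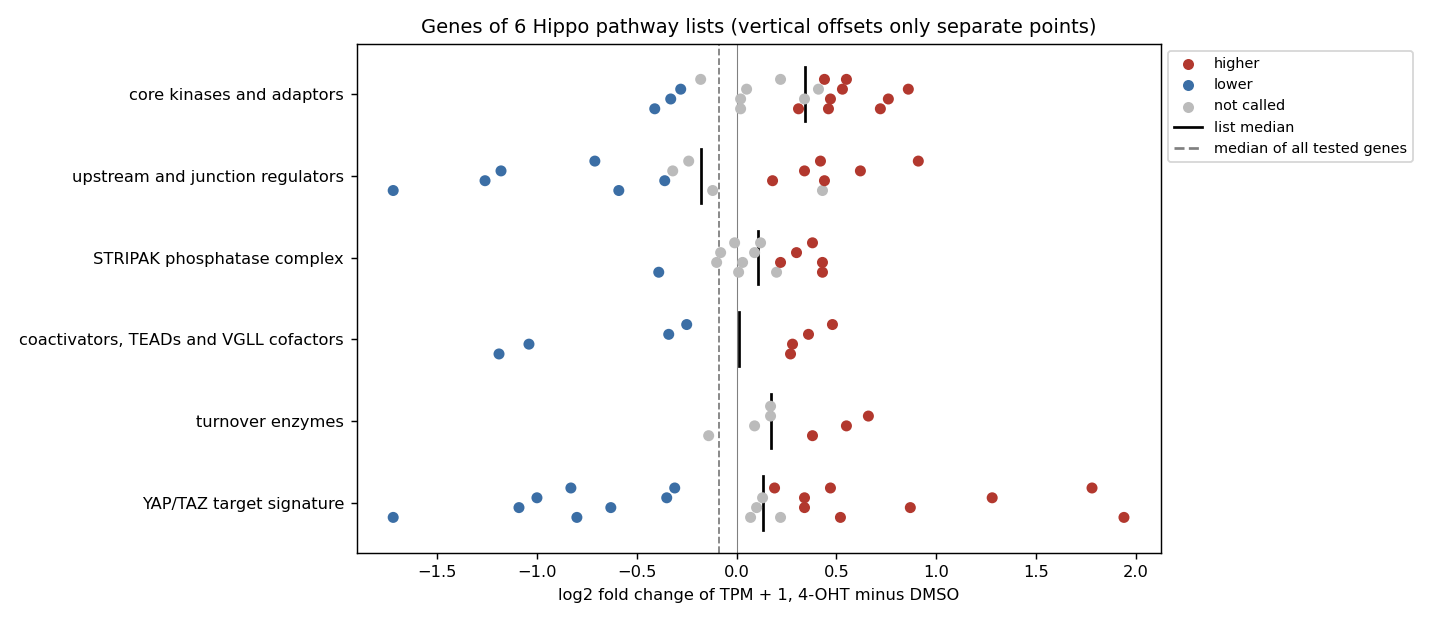
Log2 fold change (log2 of TPM + 1, 4-OHT minus DMSO) of each tested gene in the 6 pathway lists, 1 point per gene, coloured by call, with the median of each list and, as a dashed line, that of all genes tested. Medians run from -0.18 in the upstream and junction regulators to 0.34 in the core kinases and adaptors, and the lists other than the turnover enzymes hold genes called in both directions.

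A signature of 22 genes often used to read out YAP1 and TAZ did not move in a single direction. AMOTL2, LATS2 and ANKRD1 belong to it. Of 21 tested, 9 rose and 8 fell (81% called against 49.6% of all genes, median 0.13), and of the 19 others tested, 8 rose and 7 fell. The median was 0.06 without DMSO replicate 3, 0.20 without DMSO replicate 1 and 0.25 under median-of-ratios scaling. CCN2, a secreted matrix protein, was read at 280.2, 271 and 268 TPM in 4-OHT and at 192, 192 and 186 in DMSO, a log2 fold change of 0.52 (adjusted p = 3.26e-05). CCN1, its close relative, went the other way, at 471, 459 and 458 against 567, 557 and 601 (-0.31, adjusted p = 0.000578). Neither gene's libraries overlapped between the groups.

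The largest increases in the signature were in TGFB2, F3 and NT5E. TGFB2, a ligand of the TGF-beta receptors, was 4.08-fold higher (44.2 ± 1.87 against 10.8 ± 0.715, log2 fold change 1.94, adjusted p = 1.72e-06). F3, the tissue factor that starts coagulation, was at 459.9 ± 7.54 against 134 ± 8.44 (1.78), and NT5E, the surface nucleotidase CD73, at 1239 ± 14.2 against 509.8 ± 2.24 (1.28). After AMOTL2, the largest decreases were in AXL, a receptor tyrosine kinase (94.8 ± 4.85 against 203 ± 9.46, log2 fold change -1.09, adjusted p = 6.94e-06), and in CRIM1, a membrane protein that binds growth factors (105 ± 3.44 against 209.7 ± 8.48, log2 fold change -1.0).

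**Figure D5:**
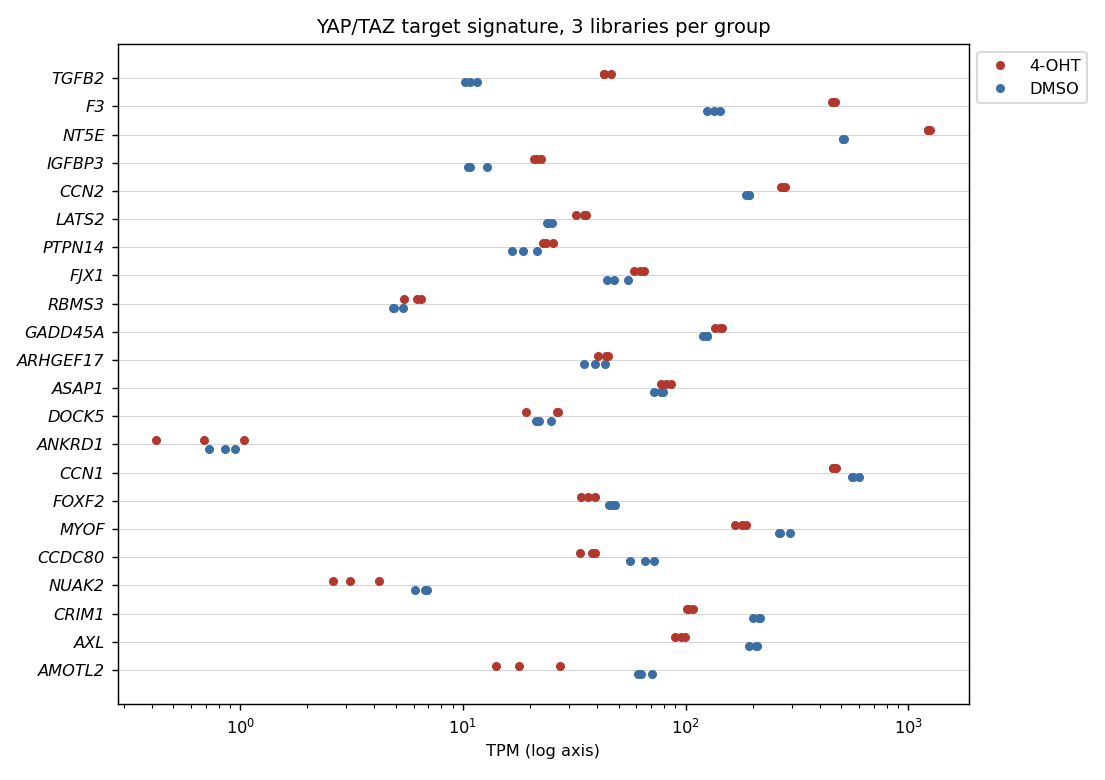
TPM on a log scale of the 22 signature genes in every library, ordered by log2 fold change (ANKRD1, not tested, stands in the middle), with 4-OHT and DMSO libraries as points. TGFB2, F3 and NT5E stand at one end, AMOTL2 and AXL at the other, and ANKRD1 lies near 1 TPM in both groups.

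The TEAD motif was present among signature genes of both directions. Windows were found for 16 of the 22, and 8 of their 18 windows (44.4%) held a match, against 11.9% of all windows. The list was made of genes taken as YAP1 and TAZ targets, so this share describes the list and is not a result of these libraries. Of the 8 genes with a match 3 rose, 4 fell and 1, ANKRD1, was not tested. Among the 3 that rose is PTPN14 (log2 fold change 0.34, adjusted p = 0.0274), named after its values were seen. Its call was lost in 5 of 14 alternatives. The sites of the signature genes with the largest increase and, after AMOTL2, the largest decrease are printed as above.
TGFB2 site: tcagggcgcaCATTCCacctccttcc
AXL site: gactttgcacCATTCCactccctccg
They lie at chr1:218345141-218345166 and chr19:41226533-41226558, both on the plus strand, with the motif 185 and 212 bases before a RefSeq start site. The AXL start is the second of those listed and lies inside the gene, and the window of the other, at the 5′ end of the gene, held 0 matches.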

How the data were processed

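The authors deposited a table of TPM by gene symbol for 6 libraries. The tools named, per the submitters' processing notes, are StringTie, STAR and Trim Galore 0.6.6, and the build is GRCh38. For annotation and strand use, nothing is given in the sources used here. The DMSO replicate 3 column, also deposited as TPM, held 1 other value slightly below 0, which was set to 0. Library sums were 998367 to 998843 TPM. Read depth is unknown, so no detection limit was computed.

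On log2(TPM + 1), the 15272 genes whose mean reached 1 TPM were tested 2-sided by limma 3.58.1 (R 4.3.3), with empirical Bayes moderation and a trended variance, with Benjamini-Hochberg adjustment over all of them and a threshold of 0.05. This test was checked on simulated data. Sums and shares were compared by an exact permutation test, whose smallest p with 3 against 3 libraries is 0.1. Alternatives changed the scaling, pseudocount, filter, variance trend, block and libraries.

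The Hippo genes, the lists and the tests were chosen with earlier results of these data known. Named genes are the 10 Hippo genes, STK3, STK4, SAV1, NF2, CCN1, CCN2 and AXL, and up to 3 called genes with the largest change in each direction of each pathway list. HRAS, MKI67 and LMNB1 are named as a check of the labels, and the markers as parts of their lists. Other listed genes are said to have been chosen after their values were seen. Positions come from GENCODE 29 and promoter windows from RefSeq (GRCh38.p14). Python 3.11.15, pandas 2.3.3, scipy 1.17.1 and matplotlib 3.10.9 were used.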

Additional observations from a re-analysis of the deposited data

How the results depend on the processing

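With 3 libraries a group, small changes depend on single libraries, and TPM carry no record of depth. YAP1, TEAD3, TEAD4, LATS2 and AMOTL2 kept their direction and call under all 14 alternatives, and LATS1 was called under none. Scaling moved the log2 fold changes of all genes by a median of 0.113 (median of ratios) or 0.131 (quantile), and the share of called genes that were lower from 60.2% to 47.1% or 49.7%. The causes of the changes below were not tested.

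Under median-of-ratios scaling TEAD1 (-0.14) and TEAD2 (-0.22) lost their calls, as they did with no filter (-0.25 and -0.34), and TEAD1 with no variance trend (-0.25). On leaving out a library WWTR1 ran from 0.23 to 0.32, TEAD1 from -0.32 to -0.17 and TEAD2 from -0.40 to -0.26.

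In the core kinases 1 gene was lower, not 3, under median-of-ratios scaling and with no filter (1 to 3 on leaving out a library). The upstream median was -0.07 under median-of-ratios scaling, -0.04 under quantile normalization and 0.03 from 5 TPM. The last of these is over fewer genes, since those with a mean under 5 TPM, AMOT and FAT4 among them, were not tested there. In STRIPAK 8 genes were higher under median-of-ratios scaling, and 0 lower there, under quantile normalization and with no filter (0 to 1 on leaving out a library). From 5 TPM the number lower was 0 because STRIP2, the only gene of the list that fell, was not tested there. The STRIPAK median was 0.22 under median-of-ratios scaling and 0.17 under quantile normalization. Of the coactivator list 2 were lower under median-of-ratios scaling and with no filter, and 2 to 3 higher and 2 to 4 lower on leaving out a library. Under median-of-ratios scaling its median was 0.12, that of the turnover enzymes 0.29 (6 higher) and that of the target signature 0.25.

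Same-numbered replicates did not deviate together (r of 0.047, 0.005 and 0.007, against -0.057 to 0.05 for replicates of different number). This does not settle whether same-numbered samples were prepared together, which the labels do not state. With the replicate number as a block 2819 genes were higher and 4246 lower, and no call of the 9 tested Hippo genes changed. In STRIPAK 0 genes were lower with the block, NF2 passed the test (-0.24, adjusted p = 0.038) and ITCH did not (0.55, adjusted p = 0.0688).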

Other observations

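Several listed genes outside the naming rule were chosen after their values were seen. AMOTL1, the remaining angiomotin, fell with AMOT and AMOTL2, from 25.6 ± 1.22 to 16.6 ± 0.688 TPM (log2 fold change -0.59, adjusted p = 0.000403). RASSF1, a scaffold of STK3 and STK4, fell from 46.7 ± 2.85 to 28.2 ± 0.369 (-0.71, adjusted p = 9.86e-05). STK38L, the paralogue of STK38, rose from 10.6 ± 0.154 to 15.8 ± 0.496 (0.53, adjusted p = 0.000825) where STK38 fell.

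In 4-OHT replicate 1 several genes of the pathway stood apart from the other 4-OHT libraries. AMOTL2 was higher there (27.2 TPM against 14.1 and 17.8), and SAV1 (37.3 against 53.9 and 51.6) and MAP4K3 (27.5 against 42.1 and 43.1) were lower. MAP4K3, a kinase that activates LATS, was not called with all libraries (0.34, adjusted p = 0.128) and was higher without that replicate (0.54, adjusted p = 0.000939). It was also called under median-of-ratios scaling (0.45, adjusted p = 0.0482).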
